A study of Homo sapiens with 40 samples.

Results

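Antisense long noncoding RNAs (lncRNAs) are RNAs without a long reading frame that are transcribed from the strand opposite a neighbouring gene, and by convention each carries that gene's symbol followed by AS and a number. Members were the genes of the total RNA table with the type lncRNA, a name of that form and a mean of 3 TPM or more over the 6 libraries of RNA taken as unfractionated (INPUT). TPM is a gene's share of the library corrected for gene length. Names starting with HOX and OIP5-AS1, TMEM161B-AS1 and JAKMIP2-AS1 were left out. The rule took 230 of 57939 listed genes, or 230 of 1425 antisense-named lncRNAs. A total of 1192 lay under 3 TPM.

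All cells were wild-type H1, a human embryonic stem cell line. They were sampled on day 0 and on days 3 and 5 of mesoderm differentiation, which used the bone morphogenetic protein BMP4 first and the fibroblast growth factor bFGF afterwards. On each day RNA was taken from the soluble nuclear extract (SNE), the chromatin-bound nuclear extract freed with micrococcal nuclease (CBNE), the membrane extract (ME), the pellet extract (PE) and the cytoplasmic extract (CE), beside INPUT. Total RNA came from 36 libraries, 2 for each of 18 groups of extract and day, and polyA RNA from 4 libraries of day 0 cells, 2 of nucleus and 2 of cytoplasm. Nothing stated that the 2 libraries of a group came from separate cultures, so p-values measure the spread between libraries, which may be technical.

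Antisense lncRNAs often start close to the start of their sense partner and run away from it, so that both are made from a shared promoter region. Others start inside the partner or beyond its far end and run into it. Some act on the partner's locus, others act elsewhere, and for many no function is known. As a class, lncRNAs are known to be kept in the nucleus more often than mRNAs.

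The cells changed between days in the markers of their state. Summed over 6 stem cell markers, INPUT held 2934 to 2945 TPM on day 0, 1793 to 1822 TPM on day 3 and 1221 to 1252 TPM on day 5, although SOX2 was listed at 0 throughout. The sum of 7 primitive streak and mesoderm markers was 13.9 to 15.9 TPM, 85.6 to 97.1 TPM and 1323 to 1413 TPM on the same days. Markers of amnion and trophoblast, which include GATA3, summed to 9.34 to 9.64 TPM on day 0 and 609 to 613 TPM on day 5, and those of endoderm to 3.71 to 4.9 TPM and 918 to 947 TPM. Markers of neuroectoderm summed to 60.7 to 61.4 TPM on day 0 and 30.2 to 33.0 TPM on day 5, and those of endothelium to 92.6 to 97.8 TPM and 30.4 to 31.9 TPM. Some of these sums rest on few genes. Of the 4 endoderm markers, 1 reached a mean of 1 TPM on day 0 and 2 on day 5. Of the 4 neuroectoderm markers it was 2 and 1, and of the 3 endothelium markers 1 and 2. In the INPUT, SNE, ME and CE libraries an estimated single read on a transcript of 1 kb was worth 0.676 to 1.70 TPM. It was worth 3.24 to 29.5 TPM in PE and 13.5 to 58.9 TPM in CBNE, so those extracts were read only where stated. A member rested on a median of 8.22 to 26.4 estimated reads in the deep total RNA libraries.

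Most members had a start near a start of their named partner. Of the 230, 229 had their named partner in the annotation (GENCODE 29, GRCh38), always on the other strand, and for 227 of all members it was protein-coding. For 156 members (67.8%) a start site lay within 1000 bases of a start of the named partner, and for 188 (81.7%) this held for some gene of the other strand. Members and named partners with starts this close are called divergent here. The order of the starts was not checked, so some of these pairs may run into each other. A distance between starts, here and below, is the smallest between any annotated transcript starts of both genes. Exons shared bases with exons of the other strand in 182 members (79.1%), and in 26 this took in at least 50% of the member's exon bases. Whether reads were counted by strand was not stated, so in those 182 genes sense and antisense reads cannot be told apart from the table alone, and 48 members had no such overlap. Exonic length ran from 240 to 20654 bases with a median of 2337, and the median member had 3 exons after merging transcripts.

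Most members were present at low levels on every day. The median INPUT mean was 6.92 TPM, 72 members reached 10 TPM and 28 reached 20 TPM. At least 3 TPM was reached on all 3 days by 169 members and on only 1 day by 12. The values nearest the rule's limit were 3.01 TPM for SEMA6A-AS2 and 3.03 TPM for ENO1-AS1, just inside it, and 2.99 TPM for LRRC2-AS1 and 2.98 TPM for THAP7-AS1, just outside it.

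EPB41L4A-AS1 (chr5:112160526-112164276), which carries the small nucleolar RNA SNORA13 within it, was the most abundant member. Its INPUT level was 126 and 113 TPM on day 0, 115 and 128 TPM on day 3 and 89.7 and 95.5 TPM on day 5. MAPKAPK5-AS1 (chr12:111839764-111842902), which starts 72 bases from the kinase gene MAPKAPK5, followed with 149.6 and 143 TPM on day 0, 76.2 and 65.5 TPM on day 3 and 60.6 and 43.0 TPM on day 5. Both were highest on day 0 or day 3 and lowest on day 5, without overlap between day 0 and day 5. The next 3 by mean level were FOXD3-AS1, FUT8-AS1 and SNTG2-AS1, whose means of 76.2, 72.1 and 66.2 TPM joined days that differed widely.

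Between day 0 and day 5, the antisense RNAs of 3 GATA genes, LCMT1-AS2, FUT8-AS1 and SBF2-AS1 rose, and FOXD3-AS1, SNTG2-AS1, PRKCQ-AS1 and GNAS-AS1 fell, in CE and SNE alike. In these bulk samples, fewer cells of a type and less RNA per cell cannot be told apart. The INPUT libraries had chosen the members, so their day values are given as a description, and tests come from CE and SNE libraries, which the rule did not use. The SNE libraries of day 5 carry numbers from a separate run of numbers. In SNE, day 5 and that break therefore cannot be told apart, while CE of day 5 lies on the side of the earlier days. Members that were low on day 0, such as the GATA antisense RNAs and LCMT1-AS2, reached the 3 TPM limit only through the later days. Their rise in other extracts of the same cells is therefore not independent of the way they were chosen. For such members the adjusted p-values below are given as a description and not as support for a rise.

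GATA2-AS1 (chr3:128489212-128502348, plus strand, 3 merged exons) starts 682 bases from a start of GATA2, a zinc finger transcription factor of blood and mesoderm lineages. Its INPUT level was 0.191 and 0.408 TPM on day 0, 10.3 and 12.3 TPM on day 3 and 34.0 and 37.0 TPM on day 5. GATA2 itself stood at 0.607 and 0.500 TPM on day 0, 28.8 and 27.8 TPM on day 3 and 94.6 and 86.4 TPM on day 5. Both rose on each later day without overlap. Day 5 against day 0, GATA2-AS1 differed by a log2 fold change of 5.54 ± 0.50 (adjusted p = 1.5e-08) in SNE and 4.57 ± 0.50 (adjusted p = 4.1e-07) in CE. Fold changes here are differences of mean log2(TPM + 1), ± gives the standard error, and adjusted p is limma's after Benjamini-Hochberg adjustment over all 24735 genes tested.

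GATA3-AS1 (chr10:8050450-8053484, minus strand) has a start 120 bases from a start of GATA3, a related factor of trophoblast, amnion and T cells. It was listed at 0 in both day 0 INPUT libraries, at 9.08 and 7.42 TPM on day 3 and at 26.5 and 21.1 TPM on day 5. GATA3 stood at 0.112 and 0.180 TPM on day 0, 29.8 and 32.5 TPM on day 3 and 97.2 and 96.3 TPM on day 5. GATA3-AS1 was higher on day 5 than on day 0 by 4.48 ± 0.55 (adjusted p = 1.5e-06) in SNE and 4.95 ± 0.55 (adjusted p = 6.1e-07) in CE. The amnion and trophoblast markers rose over the same days, with CGB3 at 0, and their part in this result was not tested.

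GATA6-AS1 (chr18:22164886-22169878, minus strand) pairs with GATA6, a factor of endoderm and heart mesoderm, at a distance of 9 bases between annotated starts. It rose later than the other 2. Its level was 0.403 and 0.369 TPM on day 0, 0.532 and 0.473 TPM on day 3 and 21.7 and 21.9 TPM on day 5, beside 0.152 and 0.231 TPM on day 0, 1.93 and 1.69 TPM on day 3 and 29.3 and 30.0 TPM on day 5 for GATA6. The 2 earlier days were under 1 TPM in every INPUT library and day 5 lay far above them. Its day 5 rise over day 0 was 4.62 ± 0.40 (adjusted p = 8.9e-09) in SNE and 4.71 ± 0.40 (adjusted p = 1.3e-08) in CE.

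ID2-AS1, divergent from ID2, an inhibitor of basic helix-loop-helix factors and a target of BMP signalling, had 0.658 and 0.703 TPM on day 0, 4.85 and 4.25 TPM on day 3 and 5.28 and 6.04 TPM on day 5. ID2 was far more abundant, with 41.7 and 37.2 TPM on day 0, 248 and 234 TPM on day 3 and 412 and 415 TPM on day 5. The member rose in SNE by 2.46 ± 0.59 (adjusted p = 0.0022) and in CE by 1.69 ± 0.59 (adjusted p = 0.036). In INPUT its difference of 1.98 ± 0.59 was no longer called when any of the 4 INPUT libraries of these days was left out, at 1.90 to 2.07.

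In LCMT1-AS2 and SBF2-AS1 the partner was not called with the member. LCMT1-AS2 (chr16:25140577-25149032), whose start lies 2493 bases from that of LCMT1, a methyltransferase of protein phosphatase 2A, had 0.0988 and 0 TPM on day 0, 0.391 and 2.66 TPM on day 3 and 44.5 and 46.4 TPM on day 5. LCMT1 had 15.7 and 15.6 TPM on day 0, 15.3 and 18 TPM on day 3 and 16.6 and 17.2 TPM on day 5, and was called in no comparison of days in INPUT. The member rose by 7.22 ± 0.65 (adjusted p = 1.6e-08) in SNE and 4.81 ± 0.65 (adjusted p = 7.3e-06) in CE, and none of its exon bases overlap the other strand. SBF2-AS1, opposite the myotubularin-related gene SBF2, had 1.75 and 1.80 TPM on day 0, 13.7 and 16.3 TPM on day 3 and 21.3 and 20.8 TPM on day 5, and SBF2 had 7.78 and 8.22 TPM on day 0, 9.90 and 11.3 TPM on day 3 and 5.79 and 6.11 TPM on day 5. SBF2-AS1 rose by 3.24 ± 0.39 (adjusted p = 1.1e-06) in SNE and 2.53 ± 0.39 (adjusted p = 3.6e-05) in CE.

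FUT8-AS1, a single-exon RNA that starts 316 bases from FUT8, the core fucosyltransferase of N-glycans, reached the highest day 5 level of any member. It had 4.94 and 7.04 TPM on day 0, 15.2 and 14.8 TPM on day 3 and 188 and 203 TPM on day 5, and FUT8 had 4.67 and 5.10 TPM on day 0, 8.71 and 10.2 TPM on day 3 and 28.1 and 32.1 TPM on day 5. The day 5 libraries stood far above every earlier one for the member, and FUT8 was also higher on day 5 (2.4 ± 0.20). It rose by 5.41 ± 1.07 (adjusted p = 0.00041) in SNE and 5.04 ± 1.07 (adjusted p = 0.001) in CE. More than 50% of its exon bases (54.2%) overlap exons of the other strand.

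FOXD3-AS1 (chr1:63320884-63324441) runs from the locus of FOXD3, a forkhead factor of pluripotent and neural crest cells. Its INPUT level was 155 and 171 TPM on day 0, 50.2 and 54.2 TPM on day 3 and 13.5 and 13.4 TPM on day 5, and that of FOXD3 was 164 and 155 TPM on day 0, 99.9 and 96.7 TPM on day 3 and 12.0 and 12.3 TPM on day 5. Both fell on each later day. FOXD3-AS1 fell by 3.63 ± 0.58 (adjusted p = 3.5e-05) in SNE and by 3.13 ± 0.58 (adjusted p = 0.00025) in CE. SNTG2-AS1 (chr2:949627-950274), divergent from the syntrophin gene SNTG2, had 147 and 136 TPM on day 0, 42.5 and 52.9 TPM on day 3 and 4.84 and 14.4 TPM on day 5, and SNTG2 had 21.3 and 23.2 TPM on day 0, 12.8 and 14.4 TPM on day 3 and 1.66 and 1.95 TPM on day 5. SNTG2-AS1 differed by -3.83 ± 0.93 (adjusted p = 0.0026) in SNE and -3.47 ± 0.93 (adjusted p = 0.0068) in CE. Its day 5 INPUT libraries lay far apart, and without the first of them the INPUT difference was -3.21 in place of -3.91 and was not called.

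B3GALT5-AS1 has a start 119 bases from a start of B3GALT5, a galactosyltransferase that builds stem cell glycolipid antigens. It had 23.7 and 24.1 TPM on day 0, 10.7 and 9.94 TPM on day 3 and 3.47 and 4.68 TPM on day 5, beside 4.59 and 4.82 TPM on day 0, 2.18 and 2.41 TPM on day 3 and 0.519 and 0.588 TPM on day 5 for B3GALT5. PRKCQ-AS1 and its partner PRKCQ, protein kinase C theta, lay close together, with 10.2 and 10.2 TPM on day 0, 3.27 and 3.18 TPM on day 3 and 1.77 and 1.87 TPM on day 5 for the member and 7.62 and 8.23 TPM on day 0, 2.94 and 3.04 TPM on day 3 and 1.76 and 1.87 TPM on day 5 for the partner. In CE, B3GALT5-AS1 fell by 2.67 ± 0.58 (adjusted p = 0.0013) and PRKCQ-AS1 by 2.12 ± 0.29 (adjusted p = 8.3e-06). The INPUT difference of B3GALT5-AS1 was not called without the first day 5 library (-2.13). GNAS-AS1, an imprinted transcript of the locus of the G protein subunit gene GNAS, fell while GNAS did not. GNAS-AS1 had 85.3 and 93.7 TPM on day 0, 53.8 and 62.6 TPM on day 3 and 20.5 and 26.3 TPM on day 5, and GNAS had 88.2 and 89.6 TPM on day 0, 123 and 126 TPM on day 3 and 127 and 131 TPM on day 5 (0.53 ± 0.08 on day 5 against day 0, under the size a call needed). The member fell by 2.50 ± 0.23 (adjusted p = 4.1e-08) in CE and by 1.27 ± 0.23 (adjusted p = 0.00016) in SNE.

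**Figure D1:**
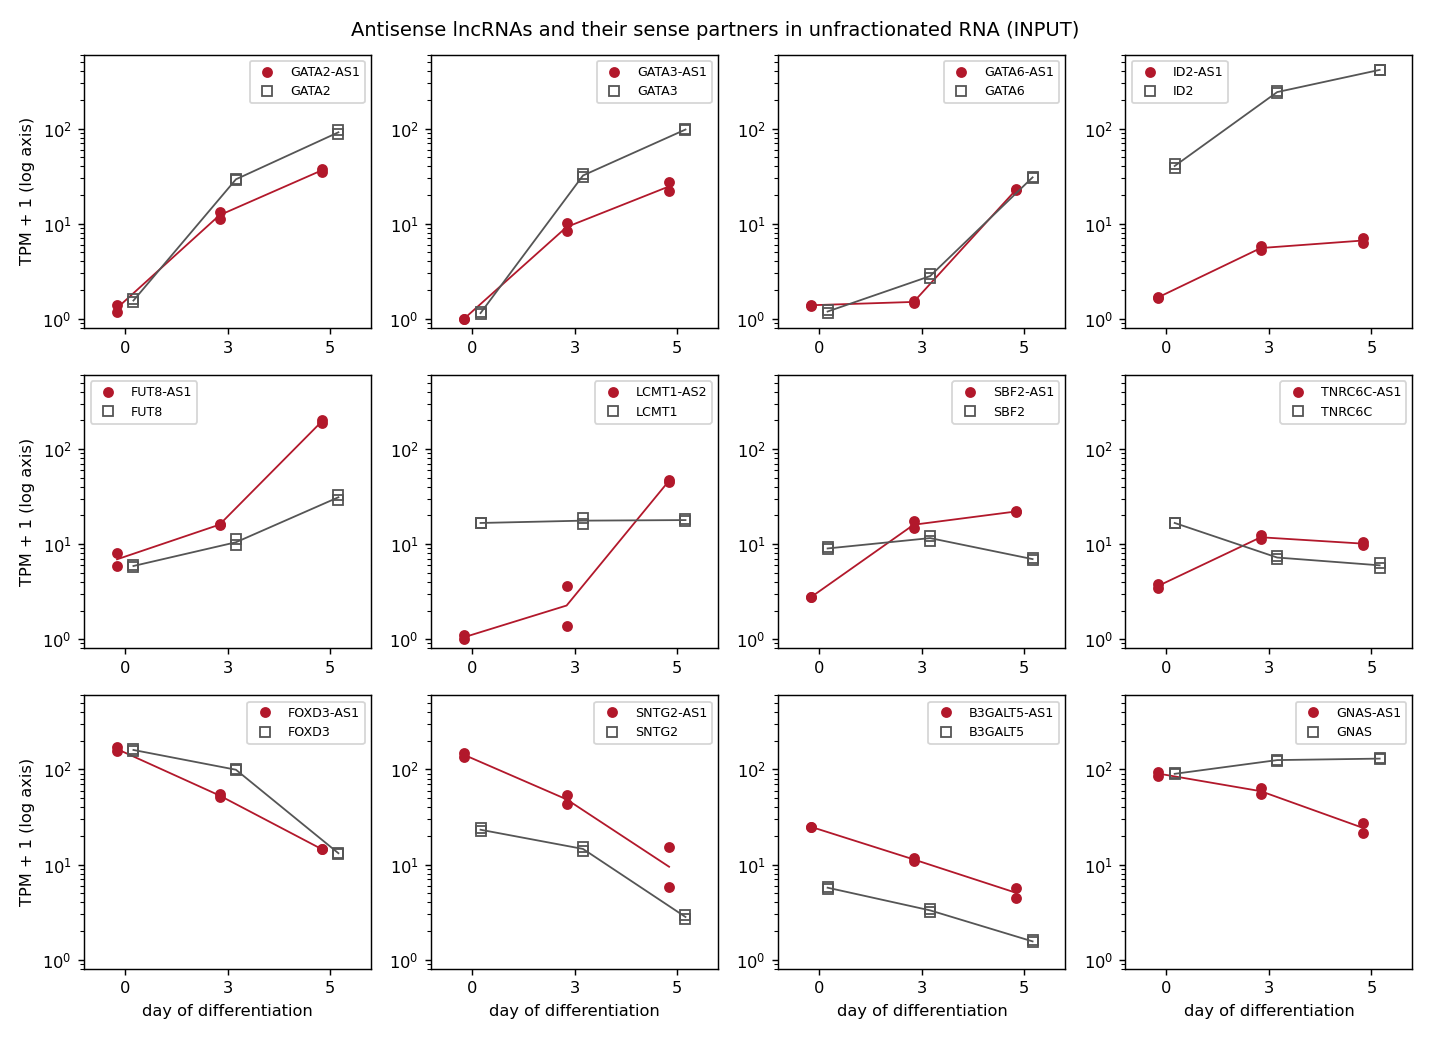
INPUT levels of 12 antisense lncRNAs (red circles) and their sense partners (grey squares) on days 0, 3 and 5, as TPM + 1 on a log axis, with 1 point a library and lines through the means of log values. The 3 GATA antisense RNAs rise beside their partners, LCMT1-AS2 rises while LCMT1 stays near its day 0 level, and TNRC6C-AS1 rises while TNRC6C falls.

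A list of 34 antisense RNAs of developmental regulators held 8 members. On day 5 against day 0 in INPUT, 4 of them were called higher (GATA2-AS1, GATA3-AS1, GATA6-AS1 and ID2-AS1) and 1 lower (FOXD3-AS1), where 6.15% and 6.67% of all genes were called. A call required an adjusted p under 0.05 and a log2 fold change of at least 1 in size. The INPUT libraries chose these members, so nothing is read from that count. In the extracts, SOX21-AS1 had a log2 fold change of -2.32 ± 0.93 (adjusted p = 0.063) in SNE and -2.46 ± 0.93 (adjusted p = 0.056) in CE from limma, without a call in either. FOXN3-AS1 and VIM-AS1, opposite the intermediate filament gene VIM, were called in neither extract.

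Over all members, INPUT calls were few. Day 3 against day 0, 10 members were called higher and 7 lower, with 4.06% and 3.38% of all genes called in those directions. Day 5 against day 0 the counts were 10 higher and 20 lower, where the background was 6.15% and 6.67%. Day 5 against day 3 they were 5 higher (2.49% of all genes) and 7 lower (2.32%). Since these libraries chose the members, nothing is read from the counts. Of the 10 and 20 members of day 5 against day 0, 9 and 18 were called the same way in SNE, and 9 and 19 in CE. How often any gene called in INPUT was called the same way there was not counted. Nothing particular to the members is therefore read from this overlap. EML2-AS1 was called the opposite way in CE, and 95.0% of its exon bases overlap the other strand. In CE libraries, 12 members were higher and 52 lower on day 5 than on day 0 (background 4.41% and 9.98%), and in SNE 16 were higher and 20 lower (background 9.56% and 10.2%). Day 3 against day 0, CE had 5 higher (2.17%) and 48 lower (9.66%), and SNE 8 (4.6%) and 28 (11.3%). Day 5 against day 3, CE had 7 higher (2.66%) and 2 lower (0.659%), and SNE 16 (7.93%) and 2 (2.04%).

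The day changes of members and partners in INPUT are given as a description, since these libraries chose the members. Of the 29 members called in INPUT on day 5 against day 0 whose partner was tested, 6 rose with a partner that rose, 5 fell with one that fell, 15 had a partner that was not called, and 3 changed against it. The 11 that changed with their partner on day 5 were all divergent pairs, as were 22 of the 29. Among pairs without exon overlap with the partner, 2 rose together and 3 fell together. In the other pairs that changed together, sense and antisense reads cannot be told apart. Day 3 against day 0, 6 pairs were both higher and 3 both lower, and of these 1 and 2 were not divergent. The 3 opposed members were TNRC6C-AS1, PXN-AS1 and FGF13-AS1, and PXN-AS1 and FGF13-AS1 are named after their values were seen. TNRC6C-AS1 had 2.85 and 2.43 TPM on day 0, 10.3 and 11.3 TPM on day 3 and 9.49 and 8.72 TPM on day 5, whereas TNRC6C, a scaffold of microRNA silencing, had 15.6 and 15.7 TPM on day 0, 6.00 and 6.45 TPM on day 3 and 4.61 and 5.37 TPM on day 5. The day 5 call of TNRC6C-AS1 was lost without INPUT day 5 replicate 1 (1.42) or INPUT day 0 replicate 2 (1.39). FGF13-AS1 had 8.57 and 8.59 TPM on day 0, 4.69 and 5.31 TPM on day 3 and 3.64 and 2.70 TPM on day 5, whereas FGF13, a fibroblast growth factor homologue, had 3.35 and 3.74 TPM on day 0, 40.2 and 49.4 TPM on day 3 and 18.3 and 21.7 TPM on day 5. Across pairs, which share their libraries, Pearson's r of the day 5 change was 0.55 over 219 pairs, 0.68 over 154 divergent pairs, 0.09 over 65 others, and 0.75 over 57 pairs whose exons did not overlap. Spearman's rho was 0.41 over the divergent pairs and 0.17 over the others. For the day 3 change Pearson's r was 0.61 and 0.20 over the same pairs. The difference between the subsets was not tested. These correlations describe the plotted genes, which are not independent replicates.

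**Figure D2:**
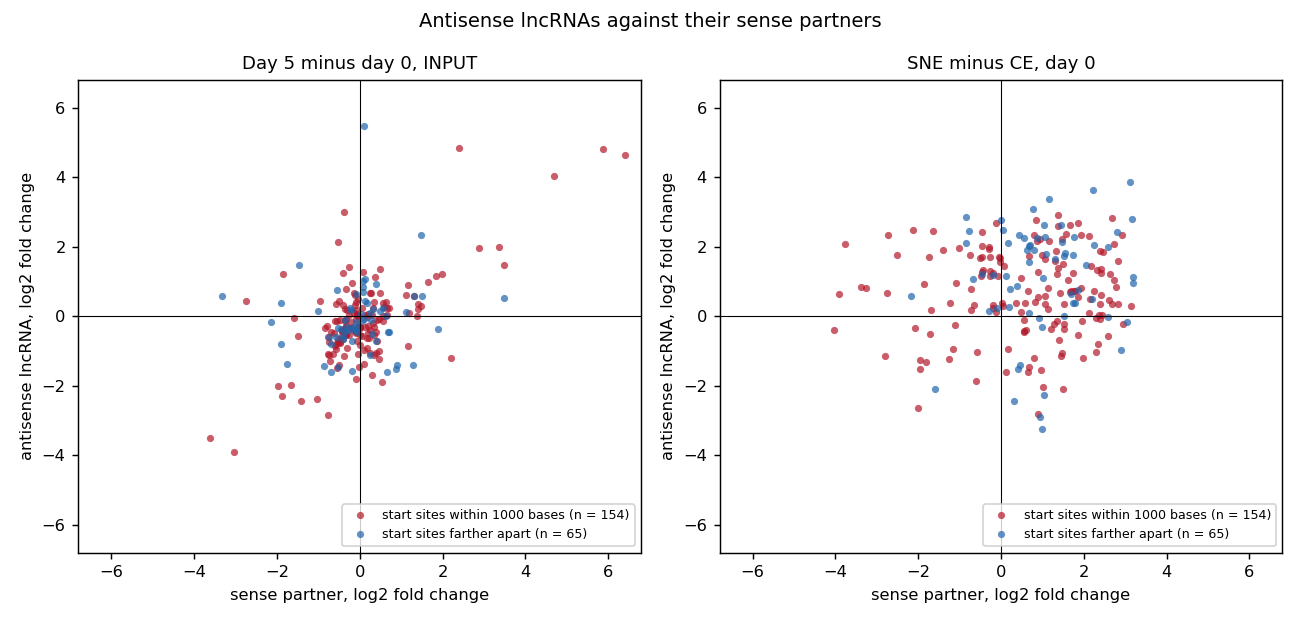
Log2 fold changes of antisense lncRNAs (vertical) against those of their sense partners (horizontal), for day 5 minus day 0 in INPUT on the left and SNE minus CE on day 0 on the right, 1 point a pair. On the left most divergent pairs (red) of large change lie at the lower left or upper right, with Pearson's r of 0.68 and Spearman's rho of 0.41, and on the right r over all 219 pairs is 0.09.

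Promoter sequences are shown for pairs that were called in the same direction in INPUT on day 5 against day 0. Among them the call of ID2-AS1 depended on every library, as above, and that of ADAMTSL4-AS2 was lost without INPUT day 5 replicate 2 (1.27) or INPUT day 0 replicate 2 (1.41). ADAMTSL4-AS2 differed by 1.49 ± 0.41 (adjusted p = 0.0068) in SNE and -0.16 ± 0.41 (adjusted p = 0.9) in CE. Of the 11 members of such pairs, 9 had a promoter in the RefSeq table (GRCh38.p14), and for 5 its start lay within 10 bases of the start in GENCODE 29. Each runs from 250 bases before the start to 50 bases after it, on the member's own strand. Capitals mark matches on either strand to 6 motifs. The TATA box was searched as TATAAA, and the CCAAT box by the letters of its name. The motif of GATA factors was searched as AGATAA. The octamer of POU factors was searched as ATGCAAAT. The motif of ETS factors was searched as CCGGAAG, and that of NRF1 in its usual palindromic form. No motif overlapped another in them.
GATA2-AS1, chr3:128488953-128489252, plus strand: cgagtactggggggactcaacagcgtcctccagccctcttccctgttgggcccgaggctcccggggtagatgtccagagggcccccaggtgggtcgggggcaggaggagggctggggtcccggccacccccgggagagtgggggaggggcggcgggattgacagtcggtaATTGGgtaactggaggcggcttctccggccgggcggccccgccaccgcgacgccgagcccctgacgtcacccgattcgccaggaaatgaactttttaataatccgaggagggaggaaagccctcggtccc
GATA3-AS1, chr10:8053435-8053734, minus strand: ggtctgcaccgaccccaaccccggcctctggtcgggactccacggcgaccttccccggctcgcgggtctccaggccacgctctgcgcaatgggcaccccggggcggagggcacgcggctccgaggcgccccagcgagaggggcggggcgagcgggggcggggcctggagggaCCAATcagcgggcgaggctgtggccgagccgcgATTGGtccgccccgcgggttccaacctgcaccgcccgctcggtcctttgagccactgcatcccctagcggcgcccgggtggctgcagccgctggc
ID2-AS1, chr2:8681814-8682113, minus strand: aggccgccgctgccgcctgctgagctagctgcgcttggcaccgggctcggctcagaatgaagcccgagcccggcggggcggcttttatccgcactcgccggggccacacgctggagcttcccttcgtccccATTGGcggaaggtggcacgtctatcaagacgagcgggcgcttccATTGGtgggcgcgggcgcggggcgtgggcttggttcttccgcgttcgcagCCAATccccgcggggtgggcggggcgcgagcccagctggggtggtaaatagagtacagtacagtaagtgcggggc
ADAMTSL4-AS2, chr1:150557675-150557974, minus strand: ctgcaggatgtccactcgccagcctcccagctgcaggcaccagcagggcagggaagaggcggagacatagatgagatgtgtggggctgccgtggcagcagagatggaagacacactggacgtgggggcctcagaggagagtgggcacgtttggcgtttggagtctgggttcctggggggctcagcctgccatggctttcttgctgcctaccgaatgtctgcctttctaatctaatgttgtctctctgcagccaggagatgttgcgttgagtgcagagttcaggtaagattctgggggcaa
B3GALT5-AS1, chr21:39612773-39613072, minus strand: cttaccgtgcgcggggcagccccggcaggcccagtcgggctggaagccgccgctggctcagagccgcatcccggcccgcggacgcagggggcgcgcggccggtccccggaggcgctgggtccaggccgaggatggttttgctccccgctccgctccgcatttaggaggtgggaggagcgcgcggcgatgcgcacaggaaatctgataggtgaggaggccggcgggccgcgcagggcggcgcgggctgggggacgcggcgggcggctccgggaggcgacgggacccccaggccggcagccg

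The CCAAT box or its reverse complement was found in the windows of GATA2-AS1 (1 match), GATA3-AS1 (2 matches) and ID2-AS1 (3 matches), and no searched motif was found in those of ADAMTSL4-AS2 and B3GALT5-AS1. The GATA3-AS1 and ID2-AS1 windows held 36 and 34 CpG dinucleotides, that of B3GALT5-AS1 held 43, and that of ADAMTSL4-AS2 held 8. Among the 170 members with a promoter in the table the median was 24 CpG, against 14 in all 34796 promoters. CCAAT was in 47 of the 170 (27.6%), against 34.6% of all promoters. The ETS motif was in 29 (17.1%), against 10.2%, the NRF1 motif in 6 (3.53%), against 1.23%, and the TATA box in 12 (7.06%), against 11.6%. AGATAA was in 7 (4.12%), against 10.4%, and ATGCAAAT in 2 (1.18%), against 1.76%. A match describes letters only. The members were chosen at 3 TPM or more and gave 1 promoter each, while all distinct promoters were taken whatever the level of their gene. These are unlike sets, so the differences are not read as a trait of antisense RNAs.

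Within the cell, more members stood higher in the soluble nuclear extract than in the cytoplasmic one. In SNE against CE, 97 members were called higher and 11 lower on day 0, 103 and 11 on day 3, and 111 and 14 on day 5. Of all genes tested, 30%, 30.5% and 35.9% were called higher on these days, and 8.66%, 6.64% and 8.17% lower. Genes tested needed only 1 TPM in 2 libraries of any extract, so they include genes under the members' limit of 3 TPM in INPUT. Shares and medians of all genes, here and below, therefore come from an unlike set. The members' share called higher was 42.2%, 44.8% and 48.3%. Their median log2 fold change was 0.86, 1.25 and 1.34, against 0.53, 0.54 and 0.65 over all genes, a gap of 0.33, 0.71 and 0.69. On day 0 the members free of exon overlap had a lower median than all genes, as given below. Intergenic lncRNAs named LINC at the same INPUT level had medians of 1.37, 1.79 and 1.46, other lncRNAs 1.06, 1.51 and 1.51, and protein-coding genes 0.49, 0.66 and 0.69. The split depends on the scaling: with library medians set equal, the counts were 48 higher and 25 lower, 63 and 34, and 66 and 51. The share of all genes called under that scaling is not given here, so these counts show only that the split moves. On day 5 the SNE and CE libraries carry numbers from separate runs of numbers, so the extract and that break cannot be told apart there. The same holds for PE against CE on day 5 and for the day 5 change of SNE against CE, and the 2 ME libraries of day 5 lie on either side of the break. SNE on day 5 against SNE on day 0 or day 3 also crosses it, so day and break cannot be told apart there.

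**Figure D3:**
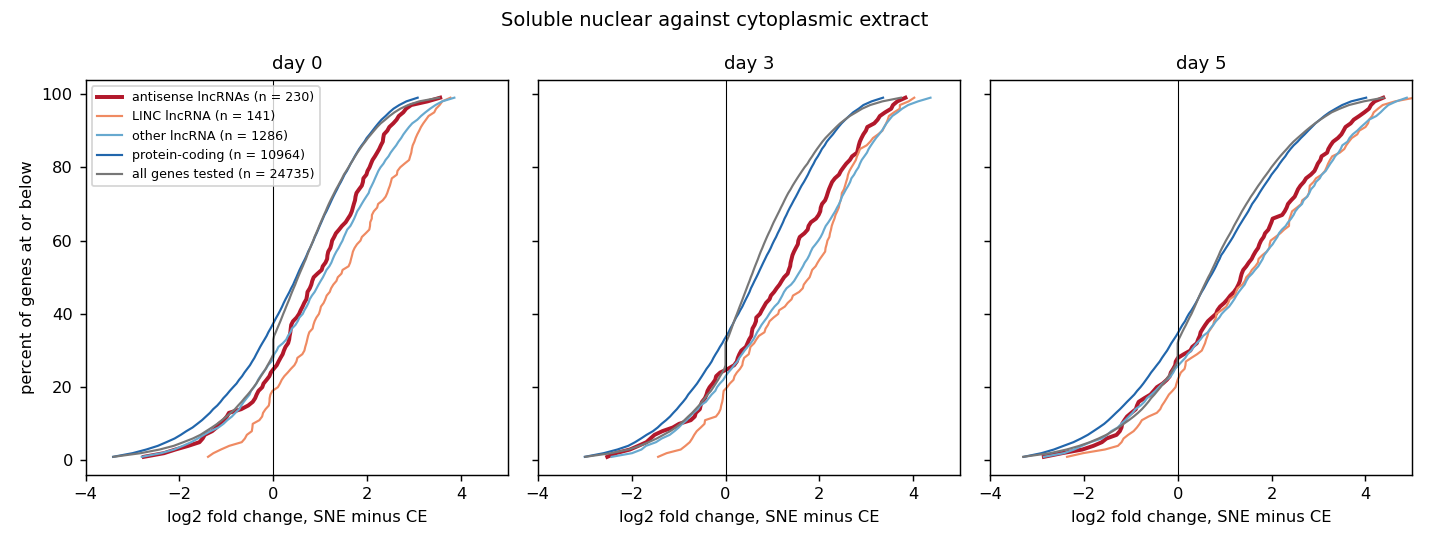
Cumulative distribution of the log2 fold change of SNE minus CE on days 0, 3 and 5, with the percentage of genes at or below each value. The antisense lncRNAs (thick red) lie right of protein-coding and all tested genes in their upper part and mostly left of the other lncRNA sets, with medians of 0.86, 1.25 and 1.34.

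A total of 88 members were called higher in SNE on all 3 days and 7 were called lower on all 3. None was called higher on 1 day and lower on another, and 93 were called on no day. The share of all genes called on all 3 days was not counted, so nothing particular to the members is read from these counts.

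The most nuclear members included RNAs that start far from their partner and some that are divergent. FSIP2-AS1, from the locus of the sperm fibrous sheath gene FSIP2, had 65.8 and 72.0 TPM in SNE, against 3.58 and 3.98 TPM in CE on day 0, a log2 difference of 3.87 ± 0.33 (adjusted p = 3.5e-09, limma). ZNF385D-AS1, opposite a zinc finger gene and one of the more abundant of this kind, had 246 and 266 TPM in SNE, against 19.1 and 20.6 TPM in CE on day 0 and 75.2 and 80.7 TPM in SNE, against 2.96 and 3.01 TPM in CE on day 5, with differences of 3.62 ± 0.41 and 4.31 ± 0.41. The extracts of each did not overlap. CD200R1L-AS1, from the locus of an immune receptor gene, had 57.9 and 68.7 TPM in SNE, against 3.57 and 3.50 TPM in CE, and BBOX1-AS1, opposite a carnitine synthesis gene, had 40.1 and 41.5 TPM in SNE, against 3.43 and 3.57 TPM in CE. The sense genes CD200R1L and BBOX1 did not pass the expression filter, and neither member shares exon bases with the other strand.

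Divergent members of this kind included WARS2-AS1 and KANSL1L-AS1. WARS2-AS1 starts beside WARS2, the mitochondrial tryptophanyl-tRNA synthetase, and had 33.7 and 35.3 TPM in SNE, against 3.67 and 3.74 TPM in CE on day 0 (log2 difference 2.92 ± 0.23, adjusted p = 9.1e-10). WARS2 itself differed by 1.38 ± 0.21. KANSL1L-AS1 had 18.1 and 18.9 TPM in SNE, against 1.49 and 1.99 TPM in CE and a difference of 2.84 ± 0.34. PSMD6-AS2 and PSMD6-AS1, opposite the proteasome subunit gene PSMD6, had the largest differences on day 5. PSMD6-AS2 had 81.5 and 96.9 TPM in SNE, against 1.59 and 3.22 TPM in CE (4.76 ± 0.57), and PSMD6-AS1, all of whose exon bases lie over exons of the other strand, had 40.6 and 53.8 TPM in SNE, against 0.566 and 1.02 TPM in CE (4.75 ± 0.95). PSMD6 itself differed by -0.74 ± 0.51 on day 5.

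Of the 5 members that carry a small RNA gene on their strand, 3 were called higher in SNE on every day, RAB11B-AS1 on days 3 and 5, and EPB41L4A-AS1 on none. GABPB1-AS1, which holds MIR4712, had 284 and 278 TPM in SNE, against 73.5 and 77.1 TPM in CE (1.89 ± 0.13). C1RL-AS1 had 34.0 and 38.9 TPM in SNE, against 7.36 and 6.78 TPM in CE (2.21 ± 0.60) and TTC28-AS1, which holds MIR3199-2, had 32.6 and 32.9 TPM in SNE, against 7.16 and 7.18 TPM in CE (2.05 ± 0.19). EPB41L4A-AS1 had 194 and 182 TPM in SNE, against 134 and 132 TPM in CE on day 0 and 101 and 95.8 TPM in SNE, against 111 and 107 TPM in CE on day 5, with differences of 0.49 ± 0.40 and -0.15 ± 0.40, neither called.

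The 7 members lower in SNE on every day were FOXD3-AS1, PITPNA-AS1, ATP2A1-AS1, FGF14-AS2, RFX5-AS1, UNC5B-AS1 and EXOC3-AS1. FOXD3-AS1, a spliced RNA of 6 merged exons, had 32.6 and 33.8 TPM in SNE, against 207 and 219 TPM in CE on day 0 (-2.64 ± 0.58, adjusted p = 0.00058), and FOXD3 mRNA differed by -2.0 ± 0.79. FGF14-AS2, a single-exon RNA with no overlap on the other strand, had 4.97 and 4.48 TPM in SNE, against 22.9 and 30.2 TPM in CE on day 0 and 5.00 and 1.69 TPM in SNE, against 45.1 and 44.0 TPM in CE on day 5 (-2.26 ± 0.39 and -3.50 ± 0.39). FGF14, which encodes a sodium channel partner, differed the other way by 1.04 ± 0.12 on day 0. PITPNA-AS1, from the locus of a phosphatidylinositol transfer protein gene, had 14.9 and 6.88 TPM in SNE, against 61.1 and 57.5 TPM in CE (-2.43 ± 0.42), and EXOC3-AS1, beside an exocyst subunit gene, had 4.01 and 2.89 TPM in SNE, against 10.6 and 11.8 TPM in CE (-1.46 ± 0.32). These 4 kept their call on every day without any 1 library. ATP2A1-AS1 on day 0 lost it without SNE replicate 1 (-1.59) or either CE library (-2.11 and -1.97), RFX5-AS1 without SNE replicate 1 (-1.49) or CE replicate 1 (-1.40), and UNC5B-AS1 without SNE replicate 2 (-2.29). On day 3, ATP2A1-AS1 lost the call in 4 of 4 fits that left out 1 library (-2.34 to -2.20) and RFX5-AS1 without SNE replicate 1 (-1.52) or CE replicate 1 (-1.67). On day 5, ATP2A1-AS1 lost it without SNE replicate 2 (-1.54), RFX5-AS1 without SNE replicate 2 (-1.38) or CE replicate 2 (-1.26), and UNC5B-AS1 without SNE replicate 1 (-1.03) or either CE library (-2.47 and -2.27). The median exonic length of the 7 was 707 bases with 2 merged exons.

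Members with more exons were called higher in SNE more often, a difference that was not tested. Of the 80 members with 5 or more merged exons, 56 were higher in SNE and 2 lower on day 0, with a median of 1.57. Of the 119 with 2 to 4 exons, 40 were higher and 6 lower, with a median of 0.72, and of the 31 with a single exon, 1 was higher and 3 lower, with a median of -0.14. Over the 230 members Spearman's rho of the day 0 difference was 0.51 with merged exons, 0.25 with exonic length, 0.10 with the percentage of overlapped exon bases and -0.02 with the INPUT level, all within the same 4 libraries. Among genes under 1000 bases, members and mRNAs lay on opposite sides of 0. The median was 0.79 for the 51 members under 1000 bases and -2.41 for 160 protein-coding genes of that length. LINC lncRNAs and other lncRNAs of that length stood higher than the members, at 1.52 and 1.11. At 5000 bases or more the median was 1.78 for 38 members, 0.96 for 5724 protein-coding genes, 1.67 for LINC lncRNAs and 2.03 for other lncRNAs. Merged exons count every annotated transcript, including retained introns, so they do not measure splicing. The 48 members free of exon overlap had 12 called higher and 2 lower, with a median of 0.34, and the 182 others had 85 and 9, with a median of 1.15. This difference between the subsets was not tested. Over all genes tested, 30% were called higher and 8.66% lower on day 0, with a median of 0.53. The median of the 48 members lay below that of all genes.

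The localisation of a member was nearly unrelated to that of its partner across pairs. Over 219 pairs Pearson's r of SNE minus CE was 0.09, 0.07 and 0.06 on days 0, 3 and 5, and 117 members on day 0 lay above their partner and 102 below. Both were higher in 43 pairs, both lower in 2, and 10 pairs were called in opposite directions. Chosen from these 10 after their values were seen, PCBP1-AS1 had 38.6 and 38.6 TPM in SNE, against 8.40 and 8.35 TPM in CE (2.08 ± 0.13), while PCBP1, an intronless gene of a poly(C)-binding protein, had 220.2 and 192 TPM in SNE, against 2898 and 2742 TPM in CE (-3.77 ± 1.05). VIM-AS1 had 9.57 and 8.05 TPM in SNE, against 1.56 and 2.30 TPM in CE (1.75 ± 0.71), and VIM had 53.9 and 62.0 TPM in SNE, against 327 and 344 TPM in CE (-2.52 ± 0.12). The member was the nuclear one in 7 of the 10, and ATP2A1-AS1, FGF14-AS2 and MCF2L-AS1 were the cytoplasmic ones.

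During differentiation, GABPB1-AS1, SPON1-AS1, SPART-AS1 and ADAMTSL4-AS1 shifted further toward SNE relative to CE. The change of SNE minus CE was called higher for 8 members and lower for 1 on day 3 against day 0 (2.44% and 1.32% of all genes). On day 5 against day 0 it was called for 19 and 1 (5.63% and 1.53%). Leaving out any 1 library gave 4 to 6 calls in all on day 3, and leaving out SNE day 5 replicate 2 gave 13 on day 5. Without the CBNE and PE libraries there were 28 calls on day 3 and 45 on day 5. The share of all genes called in that fit is not given here, so nothing about the members is read from these counts. With library medians set equal, the day 5 count was 3 and 3, so this count rests on the scaling of the extracts.

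GABPB1-AS1, divergent from the beta subunit gene of the ETS factor GABP, had 284 and 278 TPM in SNE, against 73.5 and 77.1 TPM in CE on day 0, 186 and 196 TPM in SNE, against 17.9 and 18 TPM in CE on day 3 and 175 and 187 TPM in SNE, against 22.0 and 19.6 TPM in CE on day 5. Its change was 1.45 ± 0.19 on day 3 (adjusted p = 3e-05) and 1.17 ± 0.19 on day 5 (adjusted p = 0.0002). CE fell more than SNE did. SPON1-AS1, a 240-base RNA opposite the extracellular matrix gene SPON1, had 109.7 and 104 TPM in SNE, against 19.8 and 23.6 TPM in CE on day 0, 155 and 162 TPM in SNE, against 13 and 12.5 TPM in CE on day 3 and 108 and 117 TPM in SNE, against 5.88 and 5.23 TPM in CE on day 5, with a day 5 change of 1.86 ± 0.32 (adjusted p = 0.00039). Its SNE level was highest on day 3, and its CE level was lower on each later day. SPART-AS1, beside the lipid droplet gene SPART, had 42.4 and 42.8 TPM in SNE, against 7.51 and 7.64 TPM in CE on day 0 and 63.9 and 69.6 TPM in SNE, against 2.61 and 3.01 TPM in CE on day 5, a change of 1.81 ± 0.34 (adjusted p = 0.00086). ADAMTSL4-AS1, opposite a matrix protein gene, had the largest change among those called on day 5, 2.19 ± 0.57 (adjusted p = 0.012), with 47.4 and 42.4 TPM in SNE, against 12.3 and 15.3 TPM in CE on day 0 and 73.5 and 83.8 TPM in SNE, against 4.84 and 4.36 TPM in CE on day 5. That call was lost without SNE day 5 replicate 2 (2.10) or CE day 0 replicate 2 (2.05). The day 5 change of SPON1-AS1, SPART-AS1 and ADAMTSL4-AS1 remained called with quantile normalisation and with equal library medians. With quantile normalisation the day 3 change of GABPB1-AS1 was 0.74, under the size a call needed.

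EML2-AS1 was the one member whose change was called lower, with 3.96 and 2.38 TPM in SNE, against 1.96 and 1.68 TPM in CE on day 0 and 1.33 and 1.35 TPM in SNE, against 4.2 and 5.40 TPM in CE on day 5 (-1.84 ± 0.53, adjusted p = 0.023). It was not called in 6 of the 8 fits that left out 1 library, at -2.12 to -1.57 over the 8.

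**Figure D4:**
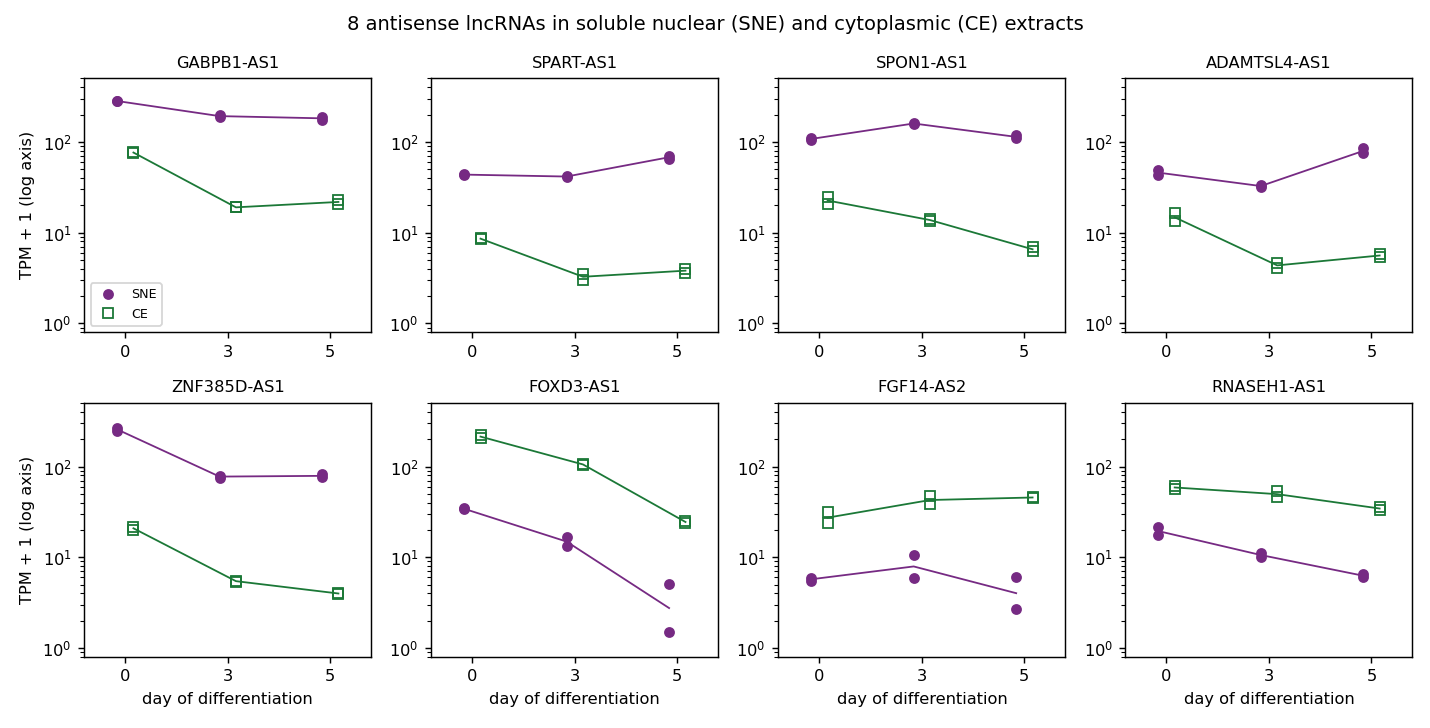
Levels of 8 antisense lncRNAs in SNE (purple circles) and CE (green squares) on days 0, 3 and 5, as TPM + 1 on a log axis, 1 point a library, lines through the means of log values. In the panels of GABPB1-AS1, SPART-AS1, SPON1-AS1, ADAMTSL4-AS1 and ZNF385D-AS1, SNE lies above CE on every day, and in FOXD3-AS1, FGF14-AS2 and RNASEH1-AS1 it lies below.

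In the membrane extract, FOXD3-AS1 on day 0 and RFX5-AS1 on days 3 and 5 were lower than in CE, and SPON1-AS1 was higher on days 3 and 5. ME against CE called 6 members higher and 12 lower on day 0 (background 1.41% and 15.2%), 6 and 9 on day 3 (1% and 6.82%) and 12 and 6 on day 5 (1.69% and 6.4%). Rescaling each library to its nuclear-encoded mRNA and lncRNA made it 95 and 3, 70 and 2, and 83 and 2, so no direction is given for the members as a whole. The share of all genes called under that scaling is not given here. RFX5-AS1, beside a regulator gene of MHC class II, had 0 and 1.11 TPM in ME, against 11.4 and 19.2 TPM in CE, on day 5 (-3.45 ± 0.53). SPON1-AS1 had 15.8 and 18.7 TPM in ME, against 5.88 and 5.23 TPM in CE (1.48 ± 0.22), and in SNE it had 108 and 117 TPM. FOXD3-AS1 on day 0 had 31.7 and 40.6 TPM in ME, against the CE values above (-2.54 ± 0.58).

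On day 5 the pellet extract showed 84 members higher and 13 lower than CE, where 21.4% and 6.21% of all genes were called. It shares its CE libraries with the SNE comparison, so the values are set side by side. SPON1-AS1 had 83.1 and 76.4 TPM in PE (3.62 ± 0.22) and SMC5-AS1, beside the cohesin-related gene SMC5, had 15.2 and 18.1 TPM in PE and 30.8 and 32.1 TPM in SNE, against 0.984 and 1.14 TPM in CE (3.09 ± 0.17). SLC9A3-AS1, from the locus of the sodium-proton exchanger gene SLC9A3, had 148 and 97.3 TPM in PE and 45.9 and 49.4 TPM in SNE, against 14.0 and 14.4 TPM in CE. Its difference from CE was 2.99 ± 0.17 for PE and 1.67 ± 0.17 for SNE, and the difference between PE and SNE was not tested. FGF14-AS2 was the member lowest against CE, with 5.00 and 3.14 TPM in PE (-3.19 ± 0.39). With equal library medians the counts were 43 higher and 37 lower, and the share of all genes under that scaling is not given here.

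In polyA RNA of day 0 cells, members again stood higher in the nucleus. Of the 166 that passed the filter there, 84 were called higher and 5 lower in nucleus against cytoplasm, where 30% and 6.22% of the 16667 genes tested were called. The filter used polyA levels, so these 166 do not stand for all 230. Their median was 1.01, against 0.50 over all genes tested there, 0.29 for protein-coding genes and 1.2 for LINC lncRNAs. Median partners stood at 0.49. With equal library medians the counts were 45 and 10, and the share of all genes under that scaling is not given here. Tables were normalised separately, so levels are compared within each only.

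SNTG2-AS1 was the member of largest difference and one of the most abundant, with 950.2 and 997 TPM in the nucleus, against 56.5 and 43.7 TPM in the cytoplasm (4.26 ± 0.12, adjusted p = 9.1e-06, limma on 2 residual degrees of freedom). Its total RNA levels were 527 and 567 TPM in SNE, against 99.0 and 117 TPM in CE (2.33 ± 0.93, adjusted p = 0.041). CCDC18-AS1, opposite a coiled-coil gene, had 66.6 and 65.8 TPM in the nucleus, against 4.55 and 4.68 TPM in the cytoplasm (3.58 ± 0.07). GABPB1-AS1 had 208 and 207 TPM, against 26.1 and 30.9 TPM (2.83 ± 0.08). GAS5-AS1, opposite the snoRNA host gene GAS5, and DICER1-AS1, beside the microRNA-processing nuclease gene DICER1, differed by 2.92 ± 0.17 and 2.60 ± 0.08. In the first 3 of these the nuclear libraries lay far above the cytoplasmic ones.

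The 5 lower members were RFX5-AS1, PITPNA-AS1, RNASEH1-AS1, KCNMB2-AS1 and ZNF433-AS1. RNASEH1-AS1, beside the nuclease gene RNASEH1, had 31.6 and 32.7 TPM in the nucleus, against 89.0 and 84.8 TPM in the cytoplasm (-1.41 ± 0.05, adjusted p = 9.6e-06). RFX5-AS1 had 2.31 and 2.78 TPM, against 11 and 10.8 TPM, and PITPNA-AS1 had 3.95 and 3.17 TPM, against 12.5 and 14.9 TPM. Both were also lower in SNE than in CE. FOXD3-AS1 had 170.0 and 183 TPM in the nucleus, against 325 and 294 TPM, without a call (-0.81 ± 0.07).

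KCNMB2-AS1 went opposite ways in the 2 tables. In total RNA it had 37.2 and 40.5 TPM in SNE, against 2.76 and 2.87 TPM in CE (3.38 ± 0.20), and in polyA RNA 1.69 and 1.22 TPM in the nucleus, against 6.15 and 4.51 TPM in the cytoplasm (-1.36 ± 0.20). Its 12 merged exons share no base with the other strand. Of the 97 members higher in SNE on day 0, 70 were tested in polyA RNA, and 43 of these (61.4%) were higher in the nucleus there and 2 lower. The 43 were 51.2% of the 84. Of the 7 lower members tested in both, 2 were lower and none higher in polyA RNA. By exon number, 10 of 24 single-exon members (41.7%) and 32 of 66 with 5 or more exons (48.5%) were called higher.

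A set of 38 members was listed at 0 in all 4 polyA libraries. Among them ZNF385D-AS1 had a day 0 INPUT mean of 49.6 TPM and FGF14-AS2 one of 17 TPM. ARRDC1-AS1 and DLGAP1-AS2, chosen after their values were seen, had 55.2 and 40.9 TPM. A value of 0 in these tables can be a failed estimate, since SOX2, a gene these cells use, was listed at 0 in total RNA. Of the 64 members not tested in polyA RNA, 14 had 10 TPM or more in day 0 INPUT.

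**Figure D5:**
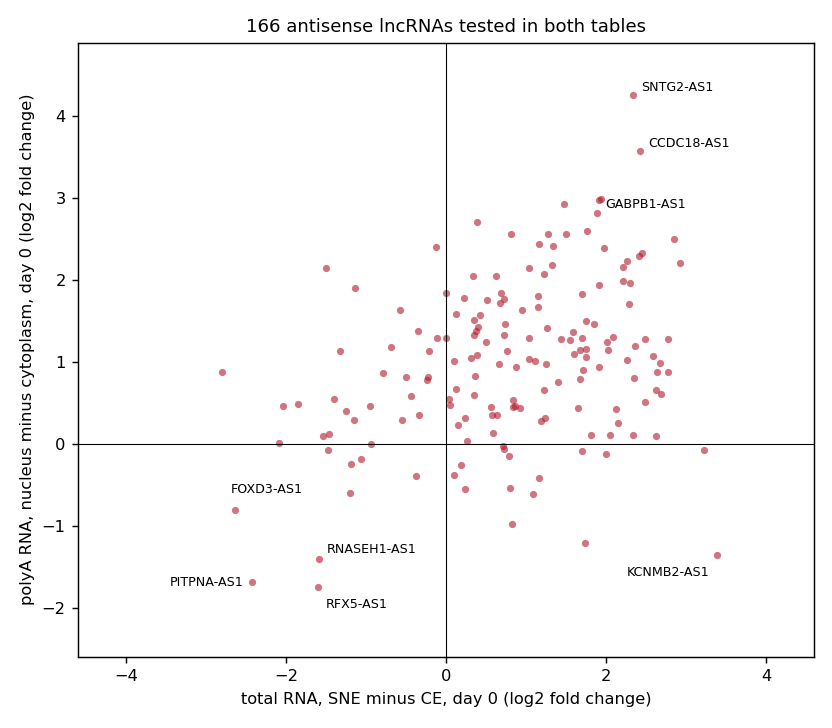
Log2 fold change of polyA nucleus minus cytoplasm (vertical) against total RNA SNE minus CE (horizontal) on day 0, 1 point for each of 166 antisense lncRNAs tested in both. A total of 123 lie on the same side of 0 in both, SNTG2-AS1 is highest in polyA RNA, and KCNMB2-AS1 lies low at the right.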

How the data were processed

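Total RNA of 36 libraries and polyA RNA of 4 libraries were given as 1 gene table each, in TPM. Per the submitters' processing notes, HISAT2 2.0.5, featureCounts 1.6.2, Salmon 1.3.0 and GATK were among the tools used by the authors, with the build hg38. Their roles, the strand setting and the normalization are not given in the sources used here, and the unit of the deposited TPM values was read from their sums.

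All tests used limma 3.58.1 in R 4.3.3 on log2(TPM + 1), with trend and robust variance, 1 mean per group and 18 residual degrees of freedom. The polyA table was fitted alone with 2. A gene entered the tests at 1 TPM in 2 or more libraries, which kept 24735 genes for total RNA and 16667 for polyA RNA. Calls needed a Benjamini-Hochberg adjusted p under 0.05 over all genes and a log2 fold change of 1 or more in size. Depth was estimated from the steps of low TPM values, and such estimates cover counting error only. The fit was tested on simulated data.

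Genes named were, per comparison, the called members of largest change, up to 10 in each direction, the 5 most abundant, those next to the 3 TPM limit, their partners, and 2 to 4 of each arrangement. A member that the rule named is not reported here. Members and lists were chosen with earlier results of these data known. Alternatives were other pseudocounts, filters and scalings, a replicate block, fewer libraries and each library left out. CBNE on all days and PE on days 0 and 3 entered the fit and were not compared, because of their depth.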

Additional observations from a re-analysis of the deposited data

Results flagged for a closer look

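The difference between SNE and CE was itself tested between day 3 and day 0 and passed the test, with a log2 change of 1.45 for GABPB1-AS1, 1.32 for SPART-AS1, 1.28 for SPON1-AS1, 1.24 for GNAS-AS1, 1.24 for TENM3-AS1, 1.17 for LAMTOR5-AS1, 1.11 for ZNF790-AS1 and -1.92 for EML2-AS1. When 1 library at a time was left out, the day 3 call was lost in 8 of 8 fits for GNAS-AS1, in 7 of 8 for SPART-AS1, ZNF790-AS1 and EML2-AS1, in 4 of 8 for SPON1-AS1 and in 1 of 8 for TENM3-AS1. The difference between SNE and CE was itself tested between day 5 and day 0 and passed the test, with a log2 change of 2.19 for ADAMTSL4-AS1, 1.86 for SPON1-AS1, 1.81 for SPART-AS1, 1.5 for PDE6B-AS1, 1.44 for SRP14-AS1, 1.43 for EMC1-AS1, 1.38 for SDCBP2-AS1, 1.36 for ZNF790-AS1, 1.31 for SMC5-AS1 and -1.84 for EML2-AS1. The day 5 call was lost in 8 of 8 such fits for SRP14-AS1, in 6 of 8 for PDE6B-AS1 and EML2-AS1, in 4 of 8 for SDCBP2-AS1, and in 2 of 8 for ADAMTSL4-AS1 and EMC1-AS1. With equal library medians, 3 members in all were called higher and 3 lower on day 5. These tests share their SNE and CE libraries of day 0 between both days.

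Members reached 100 TPM or more, above the level that 3 counts give, in extracts whose depth kept them out of the comparisons. In CBNE on day 0 the mean of the 2 libraries was 121 TPM for GABPB1-AS1, 169.6 TPM for PTOV1-AS2, 429 TPM for SLC9A3-AS1, 159 TPM for ASB16-AS1, 156 TPM for PXN-AS1, 124 TPM for VPS9D1-AS1 and 184 TPM for RBPMS-AS1. In CBNE on day 3 the mean of the 2 libraries was 165 TPM for GABPB1-AS1, 508 TPM for PTOV1-AS2, 355 TPM for SPON1-AS1, 358 TPM for SLC9A3-AS1, 208 TPM for ASB16-AS1, 115 TPM for PXN-AS1, 213 TPM for RBPMS-AS1 and 133 TPM for PYCARD-AS1. In CBNE on day 5 the mean of the 2 libraries was 163 TPM for FUT8-AS1, 125 TPM for GABPB1-AS1, 396 TPM for SLC9A3-AS1 and 253 TPM for ASB16-AS1. In PE on day 0 the mean of the 2 libraries was 227 TPM for PTOV1-AS2, 592 TPM for SLC9A3-AS1 and 156 TPM for RBPMS-AS1. In PE on day 3 the mean of the 2 libraries was 412 TPM for PTOV1-AS2 and 291 TPM for SLC9A3-AS1. The estimated reads behind these means differed widely. In CBNE on day 0 they were 6.44 and 3.73 for PTOV1-AS2, against 62.1 and 45.2 for SLC9A3-AS1. In CBNE on day 3 they were 4.98 and 6.64 for SPON1-AS1, against 166 and 221 for GABPB1-AS1. In CBNE on day 5 they were 3.15 and 6.06 for FUT8-AS1, against 37.7 and 40.2 for GABPB1-AS1. Means that rest on few reads are not read as levels.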

How the results depend on the processing

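Over the alternatives and the 88 named members, each in the comparisons that named it, 2483 values kept their direction and call, 412 kept the direction and lost the call, and 4 reversed. The 4 were day changes taken from CE in place of INPUT: on day 3, VLDLR-AS1 (-0.62), ADAMTSL4-AS2 (-0.049) and SPON1-AS1 (-0.72), and on day 5, ADAMTSL4-AS2 (-0.16). The causes were not tested. EML2-AS1, which lies outside that tally in INPUT on day 5, was called in the other direction in CE (1.03).

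Counts of called members moved with the pseudocount, the scaling and the libraries used. The shares of all genes called under these settings are not given here, so the counts show only that the calls move. With a pseudocount of 0.25, ME against CE gave 22 on day 3 and 30 on day 5. With a pseudocount of 4 it gave 11 on day 5, INPUT day 5 against day 3 gave 9, and polyA RNA gave 50. Quantile normalisation gave 43 and 16 for ME against CE on days 0 and 3, 5 and 6 for the change of SNE against CE on days 3 and 5, and 50 in polyA RNA. Equal library medians gave 22 for ME on day 0, 6 for the change on day 5 and 55 in polyA RNA. Totals over nuclear protein-coding and lncRNA genes gave 98, 72 and 85 for ME on days 0, 3 and 5. Without the CBNE and PE libraries, whose spread then no longer entered the fit, INPUT gave 34 on day 3 and 56 on day 5 against day 0, ME gave 43, 29 and 39, and the change gave 28 and 45. In place of INPUT, CE libraries gave 53, 64 and 9 for day 3 and day 5 against day 0 and day 5 against day 3, and SNE libraries gave 36 for the first and 18 for the last. Among the 48 members without exon overlap, SNE against CE gave 14 on day 0 and 15 on day 3.

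Leaving out 1 library at a time, which leaves a group with 1 library assumed to vary like the others, gave 90 to 97, 102 to 107 and 109 to 116 calls for SNE against CE on days 0, 3 and 5. INPUT gave 13 to 15, 26 to 30 and 7 to 10 for day 3 against day 0, day 5 against day 0 and day 5 against day 3. ME gave 12 to 16, 5 to 13 and 10 to 19, with the split on day 3 reversed at 11, 13 and 5. PE gave 87 to 102, the change of SNE against CE 4 to 6 on day 3 and 13 to 23 on day 5, and polyA RNA 86 to 92.

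No pairing of libraries by replicate number was seen. The correlation of replicate 1 minus replicate 2 between groups was -0.043 to 0.058 over 66 pairs of groups, and 0.028 in polyA RNA. Counting error in low genes can hold such a correlation near 0, so a pairing is not excluded. With a replicate block, SNE against CE gave 106, 115 and 124 calls and polyA RNA 89.

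Depth limits low members: the median member rested on 8.22 to 26.4 estimated reads in each total RNA library of INPUT, SNE, ME and CE.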
